A study of Mus musculus with 32 samples.

Results

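The genes that encode the proteins of the cytosolic ribosome were followed through sorted blood-forming stem and progenitor cells of the mouse marrow (HSPCs). Members were the protein-coding mouse genes whose symbol begins with Rpl or Rps and a digit, together with Rpsa, Rplp0, Rplp1 and Rplp2, leaving out pseudogenes and the Rps6k kinases. The rule found 86 of the 45706 genes in the tables. Of these, 46 encode proteins of the large subunit, 31 encode proteins of the small subunit and 8 are paralogues of such genes. The remaining member, Rps19bp1, shares the symbol pattern only: it encodes a nucleolar protein that binds Rps19 and is not part of the ribosome.

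All recipients were lethally irradiated C57BL/6J mice (CD45.2) that received 800000 wild-type marrow cells carrying both CD45 alleles (CD45.1+/2+), beside 200000 partner cells (CD45.1). In experienced mice the partner cells came from iMLL-AF9 donors, homozygous for a human MLL-AF9 leukaemia fusion (hMLL-AF9) under doxycycline control and carrying the reverse tetracycline activator (rtTA). In naive mice the partner cells lacked hMLL-AF9 and carried rtTA only. Doxycycline was given to both kinds of mice from 6 to 8 weeks after transplantation for 5 weeks and was then withdrawn for 4 weeks, so that both histories share irradiation, transplantation and the drug. Mice then received lipopolysaccharide (LPS), a bacterial cell wall product sensed by Toll-like receptor 4, or phosphate-buffered saline (PBS), and were killed 24 h later. The dose of LPS and the age of the mice are not given in the labels. The cells sorted were CD45.1+/2+, lineage-negative, Kit-positive and Sca1-positive. They are thus the wild-type donor's cells in all 4 groups, and never carried the fusion. The groups were experienced LPS, naive LPS, experienced PBS and naive PBS, with 4 libraries each. Experienced against naive asks whether normal HSPCs that lived beside a leukaemia differ, and LPS against PBS asks how they answer an inflammatory challenge.

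Ribosomal proteins are made in the cytoplasm, imported into the nucleus and assembled with ribosomal RNA in the nucleolus, and the large and the small subunit are then exported separately. Their mRNAs are among the most abundant of the cell and begin with a run of pyrimidines, the terminal oligopyrimidine (TOP) motif. Through this motif mTOR, the protein Larp1 and related factors set how much of the mRNA is translated, often with little change in the amount of mRNA. In blood, mutations in several of these genes, Rps19 and Rps24 among them, cause Diamond-Blackfan anaemia in humans, and mouse haematopoietic stem cells are known for a low and tightly held rate of protein synthesis.

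The bases around the annotated transcription starts are shown for some of the members whose values the results turn on, with Rps6 beside them. Some of these starts carry the motif and others do not. Each window holds 15 bases before and 15 bases after the start, read from RefSeq's GRCm38.p6 promoters on the gene's own strand. Capitals mark a run of pyrimidines: a C followed by at least 5 bases that are each C or T. Where several such C stood in an unbroken run, the capitals begin at the one nearest the start. Pyrimidines directly before it stay in lower case, as in Rps24, Rps6 and Rps27l.
Rps24, chr14:24490663-24490692, plus strand: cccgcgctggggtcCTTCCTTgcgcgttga
Rpl38, chr11:114668565-114668594, plus strand: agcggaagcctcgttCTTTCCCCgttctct
Rps6, chr4:86857353-86857382, minus strand: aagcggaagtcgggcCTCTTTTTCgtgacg
Rps27l, chr9:66946071-66946100, plus strand: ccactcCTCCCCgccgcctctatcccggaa
Rpl36al, chr12:69184053-69184082, minus strand: cattcccgtcgctcaggttcagttccgact
The marked run began at the first base of the mRNA in Rpl38 and in Rps6, and 1 base before the start in Rps24. Rps6 is the protein whose phosphorylation is the usual readout of mTOR signalling. In Rps6 and in Rps24 a further C stood directly before the marked run, so the unbroken run of pyrimidines began earlier there. In Rps27l the run lay before the start, and the window of Rpl36al held none. Of windows not printed, that of Rplp0, of the large subunit, also held none, and that of the paralogue Rpl22l1 held a run from base 4 of the mRNA. RefSeq lists a second start for Rps24 and for Rps27l; the upstream of each pair is shown, and the window of each second start held no such run.

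RefSeq held a promoter for 66 of the 86 members. Within 20 bases on either side of the start, on the sense strand, 42 of the 66 (63.6%) held a C followed by 5 bases that are each C or T, against 8859 of all 27025 genes with a promoter (32.8%). On the other strand the shares were 11 of 66 members (16.7%) and 35.7% of all genes. The letters CTTCCG, the core of the site bound by Ets-family factors, stood on either strand of the 300 bases in 44 of 66 members (66.7%), against 18.8% of all genes. These matches are descriptions of the letters and do not show binding.

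The 16 libraries held between 7.72 M and 22.3 M expected counts (M for mega), the read numbers that RSEM estimates per gene. The gates' own markers were present, with Kit at 115 to 232 TPM (a level per length, scaled to the same total in every library) and Ly6a, the gene of Sca1, at 26.3 to 231 TPM. Ebf1 and Cd3e, which define B and T cells, stayed at or under 0.51 TPM, but other genes of the B and the T and NK lists were present, Ighm at up to 655 TPM, Cd79b at up to 22.7 and Nkg7 at up to 190. Marker lists of several lineages differed between LPS and PBS. Of all genes, 4.52% were called higher and 8.26% lower in experienced mice, and 9.81% higher and 11.9% lower in naive mice. In a list of 7 genes, 1 gene called lower is near that share. The summed level of 6 basophil and mast cell genes was 163 to 308 TPM in experienced LPS, 219 to 476 in naive LPS, 35.6 to 117 in experienced PBS and 32.1 to 62.2 in naive PBS libraries, and 4 rose with LPS in experienced and all 6 in naive mice. The erythroid list summed to 176 to 920 TPM in experienced LPS, 295 to 949 in naive LPS, 47.1 to 1310 in experienced PBS and 18.2 to 116 in naive PBS libraries, with 0 of 7 tested genes called in experienced mice and 4 higher in naive mice. The B list summed to 27.8 to 51.2 TPM in experienced LPS, 24.9 to 42.9 in naive LPS, 107 to 676 in experienced PBS and 137 to 281 in naive PBS libraries, and 1 of 7 genes fell in experienced and 3 in naive mice. The monocyte and macrophage list summed to 62.3 to 89.7 TPM in experienced LPS, 63.9 to 74.0 in naive LPS, 161 to 273 in experienced PBS and 163 to 203 in naive PBS libraries, and 1 of 7 genes fell in each history. The 8 stem and progenitor genes summed to 576 to 721 TPM in experienced LPS and 560 to 787 in naive LPS libraries. Their sums were 842 to 1210 TPM in experienced PBS and 959 to 1210 in naive PBS libraries. Of this list, LPS lowered 5 members in the experienced and 6 in the naive history, and raised 1 in each. In such bulk samples, fewer cells of a type and less RNA per cell cannot be told apart, and the part of these shifts in the values below was not tested.

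Some libraries stood apart in these very genes. The first principal component of the members' log2 CPM (counts scaled to the library size by trimmed means) held 67.3% of their variance, and 65 of 83 members had a weight of the same sign. Its score was -6.23 in experienced LPS replicate 4, -4.98 in naive LPS replicate 2, -3.02 in experienced PBS replicate 4, -2.77 in naive LPS replicate 1 and -2.24 in experienced PBS replicate 3, while the other 11 libraries lay between -0.2 and 3.28. Experienced LPS replicate 4 also had the fewest counts (7.72 M), the fewest detected genes (14889) and the highest share of mitochondrial counts (7.3%). Experienced PBS replicate 4 had 5.94% mitochondrial counts, and the other 14 libraries had 1.91% to 4.26%. Counts of called members and most median changes are also given with 1 library left out. The share of TPM and the counts of groups not overlapping are given with all libraries only.

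Ribosomal protein mRNAs were abundant throughout. In TPM, members of the large subunit had a median of 1392, between 318.6 for Rpl27 and 3881 for Rplp1. Members of the small subunit had a median of 1746 TPM, between 671.2 for Rps3 and 3615 for Rps26. The highest levels over all libraries were those of Rplp1, an acidic stalk protein (3881 TPM), Rps26 (3615 TPM), Rps24 (3564 TPM), Rpl41, the smallest ribosomal protein (3372 TPM), and Rpl13a (3025 TPM). Paralogues were low. Rps27rt, a copy of Rps27, had 15.2 TPM, Rpl7l1 had 56.2 TPM, Rpl22l1 had 219.9 TPM, Rps27l had 264.4 TPM and Rpl36al had 393 TPM, and Rps19bp1 had 22.62 TPM. Rpl10l was at 0 in every library, and Rpl39l and Rpl3l reached at most 0.92 and 0.8 TPM. These 3 failed edgeR's filter on low counts, which left 83 members for the tests. Reads of these genes are shared with many processed pseudogenes: pseudogenes matched by sequence held 58.9% of the counts of Rpl27 and its pseudogenes together, 42.9% for Rpl5 and 36.0% for Rpl27a, so the values of these 3 genes are uncertain.

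Members together took between 4.84% and 7.14% of the counts of a library. Their share was 6.60%, 6.68%, 6.48% and 4.84% in the experienced LPS libraries (mean 6.15 ± 0.88, SD, n = 4), 5.56%, 5.20%, 7.12% and 7.03% in naive LPS (6.23 ± 0.989), 5.59%, 5.96%, 5.38% and 5.53% in experienced PBS (5.62 ± 0.245) and 6.96%, 5.98%, 5.82% and 7.14% in naive PBS (6.47 ± 0.672). In counts the groups overlapped in every pairing, and the low experienced LPS library is replicate 4. Per length, the share of all TPM averaged 13.3 ± 1.62% in experienced LPS, 13.0 ± 1.83% in naive LPS, 12.7 ± 0.389% in experienced PBS and 13.8 ± 0.524% in naive PBS (SD, n = 4 each). By this measure the experienced PBS libraries, at 12.4% to 13.3%, all lay below the naive PBS libraries, at 13.4% to 14.5%, and the other pairings overlapped.

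**Figure D1:**
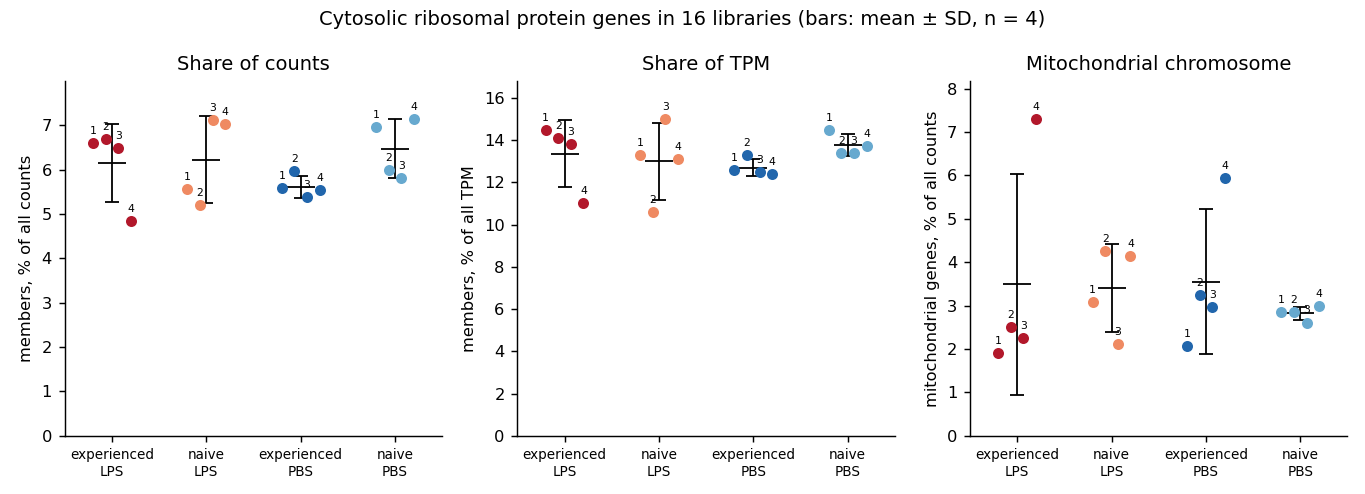
Share of all counts (left) and of all TPM (middle) held by the ribosomal protein genes, and share of counts from the mitochondrial chromosome (right), in percent; each point is a library with its replicate number, and bars are mean ± SD (n = 4). The groups overlap in both shares of the ribosomal protein genes except for the share of TPM of experienced PBS and naive PBS, and experienced LPS replicate 4 has the lowest share of counts (4.84%) and the highest mitochondrial share (7.3%).

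In naive mice, few ribosomal protein genes changed with LPS. Of 83 members, 1 rose, Rps24, by 0.70 ± 0.23 on the log2 scale (SE; 1.63-fold; edgeR adjusted p = 0.0386), and 0 fell. Among all 15186 genes tested, 9.81% rose and 11.9% fell. At an unadjusted p under 0.05 the counts were 6 members higher and 0 lower, against 17.6% and 17.8% of all genes. DESeq2 called 3 members higher (Rps24, Rpl36al and Rps27l), against 12.7% of all genes, and limma on log2(TPM + 1) called 0. The median change of the members was 0.03 and that of all genes 0.02. With 1 library left out, the members' median ranged between -0.07 (without naive LPS replicate 3) and 0.14 (without naive LPS replicate 2). For 72 members (86.7%) the 95% interval lay within a 2-fold change in either direction.

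Rps24 is a small subunit protein. Its CPM was 1830, 2370, 1320 and 2110 in naive LPS libraries, against 1140, 1020, 966 and 1560 in naive PBS libraries. All but 1 of the naive LPS libraries lay above every naive PBS library. Leaving out naive PBS replicate 1, 2 or 3 ended the call of Rps24, as did leaving out naive LPS replicate 1, 2 or 4. The count became 0 without each of these PBS libraries and 2 without naive LPS replicate 1 (Rpl36al and Rps27l), and without experienced LPS replicate 4 it was 3 (Rps24, Rpl36al and Rps27l, against 14.0% of all genes). Per length, Rps24 had 4580, 3700, 2670 and 3700 TPM in naive LPS libraries and 2990, 3320, 3200 and 4660 TPM in naive PBS libraries. These groups overlapped, and with RSEM's effective length as an offset the log2 change of Rps24 was 0.10 ± 0.25 (SE, edgeR adjusted p = 0.83).

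Other members came near the threshold in naive mice. Rps27l, the p53-induced paralogue of Rps27, had 69.6, 69.9, 93.6 and 154 CPM in naive LPS libraries, against 62.9, 52.9, 50.8 and 63 CPM in naive PBS libraries. The naive LPS libraries lay above all naive PBS libraries, with a log2 difference of 0.75 ± 0.28 (SE, edgeR adjusted p = 0.0628). Rpl7a, of the large subunit, was the only other member whose naive LPS libraries all lay above the naive PBS ones, with 1160, 1210, 1280 and 1160 CPM against 1070, 978, 1010 and 1150 CPM. This makes 2 of 83 members, against 12.5% of all genes, and 0 members lay below without overlap, against 16.8% of all genes. The largest negative estimate was that of Rps14, of the small subunit, at -0.56 ± 0.55 (SE, edgeR adjusted p = 0.501).

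In experienced mice, LPS raised 2 of 83 members and lowered 0, against 4.52% of all genes higher and 8.26% lower. At an unadjusted p under 0.05, 6 members were higher and 0 lower, against 11.4% and 16.5% of all genes. The estimates leaned to one side: 76 of 83 were positive, with a median of 0.24, against a median of -0.02 over all genes. This median was 0.44 without experienced LPS replicate 4, and 0.19 to 0.28 without any other single library. The medians were 0.21 for the small subunit, 0.24 for the large subunit and 0.50 for the 5 paralogues tested. DESeq2 called 4 members (Rpl11, Rpl36al, Rpl38 and Rpl41), against 7.76% of all genes, and limma on log2(TPM + 1) called 0.

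Rpl36al, the paralogue of the X-linked large subunit gene Rpl36a, had 160, 171, 171 and 128 CPM in experienced LPS libraries, against 92.1, 95.8, 78.8 and 119 CPM in experienced PBS libraries. Every LPS library lay above every PBS library, and the log2 change was 0.71 ± 0.16 (SE; 1.64-fold; edgeR adjusted p = 0.00968). In naive mice it had 115, 166, 171 and 143 CPM with LPS, against 129, 94.1, 98.4 and 119 CPM with PBS, a log2 difference of 0.43 ± 0.16 (SE, edgeR adjusted p = 0.0677). Per length, Rpl36al kept the pattern, with 488, 493, 489 and 392 TPM in experienced LPS and 312, 317, 302 and 385 TPM in experienced PBS libraries.

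Rpl38, a large subunit protein that mouse embryos need to translate Hox mRNAs, had 501, 556, 505 and 601 CPM in experienced LPS libraries, against 294, 338, 213 and 399 CPM in experienced PBS libraries. The groups did not overlap, and the log2 change was 0.80 ± 0.22 (SE; 1.74-fold; edgeR adjusted p = 0.0249). In naive mice the libraries overlapped, with 281, 430, 508 and 603 CPM with LPS and 462, 357, 321 and 436 CPM with PBS. The call of Rpl38 was lost without experienced LPS replicate 2 and without experienced PBS replicate 1, 2 or 3, which each left Rpl36al as the 1 member called. With effective length as an offset Rpl38 was not called either (edgeR adjusted p = 0.0844). Rpl11, which with Rpl5 binds the p53 ligase Mdm2, was the third and last member with experienced groups apart. It had 666, 640, 676 and 570 CPM in experienced LPS and 436, 534, 362 and 515 CPM in experienced PBS libraries (log2 difference 0.47 ± 0.18, SE, edgeR adjusted p = 0.0958). Groups not overlapping and higher were thus found for 3 of 83 members, against 6.45% of all genes.

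The count in experienced mice turned on experienced LPS replicate 4, the library with the lowest share of these genes. Without it 12 of 83 members were called higher, against 9.36% of all genes, with Rpl41 at a log2 change of 0.95 ± 0.22, Rpl13a at 0.70 ± 0.22 and Rpl7l1 at 0.52 ± 0.14 (SE). Without experienced PBS replicate 4 the count was 6, against 6.25% of all genes, and without both of these libraries 8, against 10.1% of all genes. In naive mice the fit without both libraries called 6 members, against 15.7% of all genes. Scaled to the summed counts of the family itself, Rpl36al was the 1 member called in experienced mice, against 1.38% of all genes, and 0 were called in naive mice, against 4.15%.

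**Figure D2:**
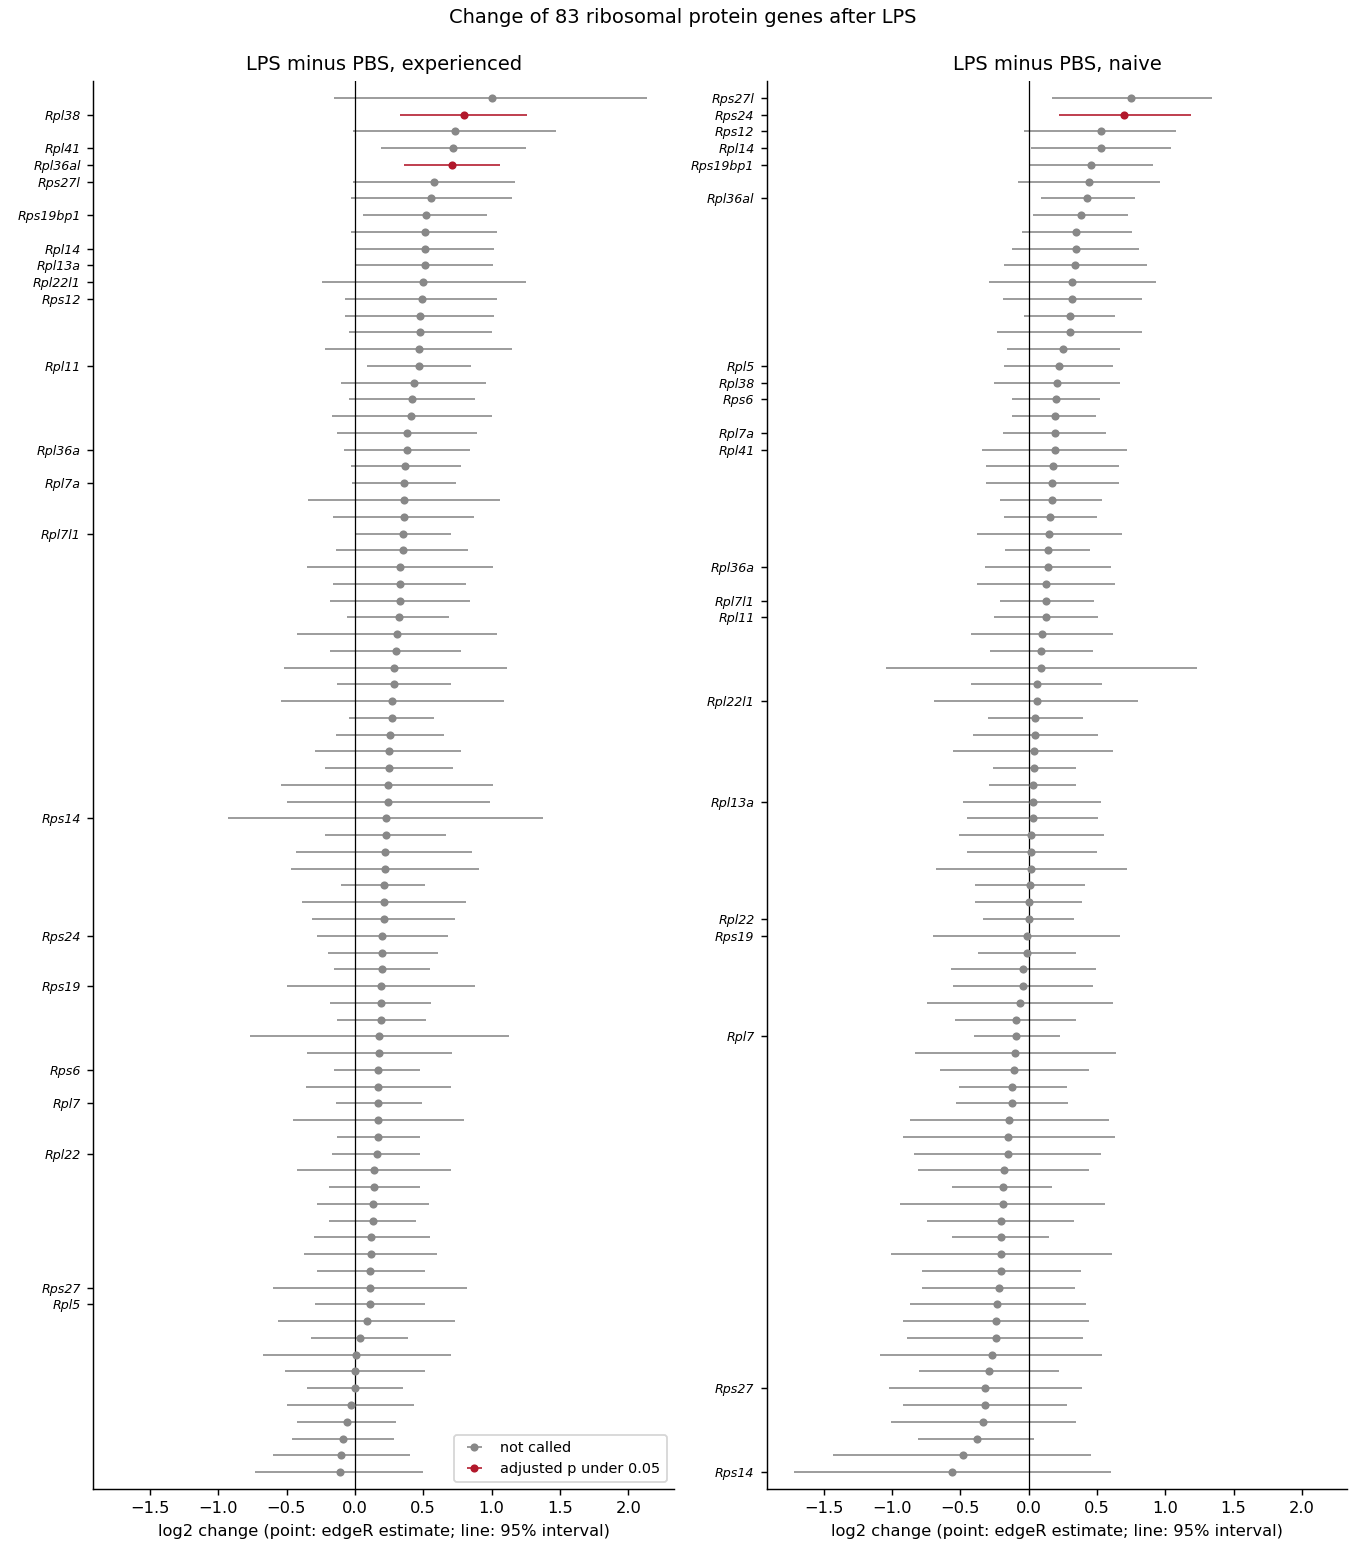
Log2 change with LPS of each of 83 ribosomal protein genes in experienced (left) and naive mice (right); points are edgeR estimates, lines are 95% intervals, red marks an adjusted p under 0.05, and labels name the main genes described in the text. Red points are Rpl36al and Rpl38 in experienced mice and Rps24 in naive mice, and most lines cross 0.

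Averaged over both histories, 8 LPS against 8 PBS libraries gave a finer test, which was added after the data were seen. In this contrast 7 of 83 members rose and 0 fell, against 15.2% of all genes higher and 18.3% lower. They were Rps27l (log2 change 0.67 ± 0.20, SE, edgeR adjusted p = 0.0155), Rpl36al (0.57 ± 0.12, 0.00131), Rpl14 (0.52 ± 0.17, 0.0273), Rps12 (0.51 ± 0.19, 0.0448), Rpl38 (0.50 ± 0.15, 0.0194), Rps19bp1 (0.49 ± 0.15, 0.0216) and Rps24 (0.45 ± 0.16, 0.0412). Rpl36al, Rpl38 and Rps27l passed without any 1 of the 16 libraries. Rpl38 was lost in other settings, with effective length offsets (edgeR adjusted p = 0.0668) and scaled to the ribosomal protein genes (edgeR adjusted p = 0.0636). Under limma on log2(TPM + 1) both Rpl38 (limma adjusted p = 0.171) and Rps27l (limma adjusted p = 0.0965) were lost. Rps12 was lost in 9 of those 16 fits, Rps24 in 10, Rpl14 in 4 and Rps19bp1 in 2. The count was 4 without experienced PBS replicate 1 and without naive PBS replicate 2 or 3. For 0 members did all 8 LPS libraries lie above all 8 PBS libraries, against 1.94% of all genes. Over the family, 67 of 83 estimates were positive, with a median of 0.16 against 0.01 over all genes.

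Rps12 and Rpl14 had their highest values in experienced LPS replicate 4 and naive LPS replicate 2, the libraries with the lowest family scores. Rps12, of the small subunit, had 783, 757, 730 and 1360 CPM in experienced LPS, 828, 1430, 768 and 1050 in naive LPS, 480, 614, 509 and 989 in experienced PBS and 684, 652, 635 and 855 in naive PBS libraries. Rpl14, of the large subunit, reached 1200 CPM in experienced LPS replicate 4 and 1610 CPM in naive LPS replicate 2, while its other LPS libraries lay between 715 and 903 CPM. Without experienced LPS replicate 4 and experienced PBS replicate 4 together, the averaged log2 change was 0.57 ± 0.16 for Rpl14 (SE, edgeR adjusted p = 0.00888) and 0.53 ± 0.14 for Rps12 (SE, edgeR adjusted p = 0.00601).

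**Figure D3:**
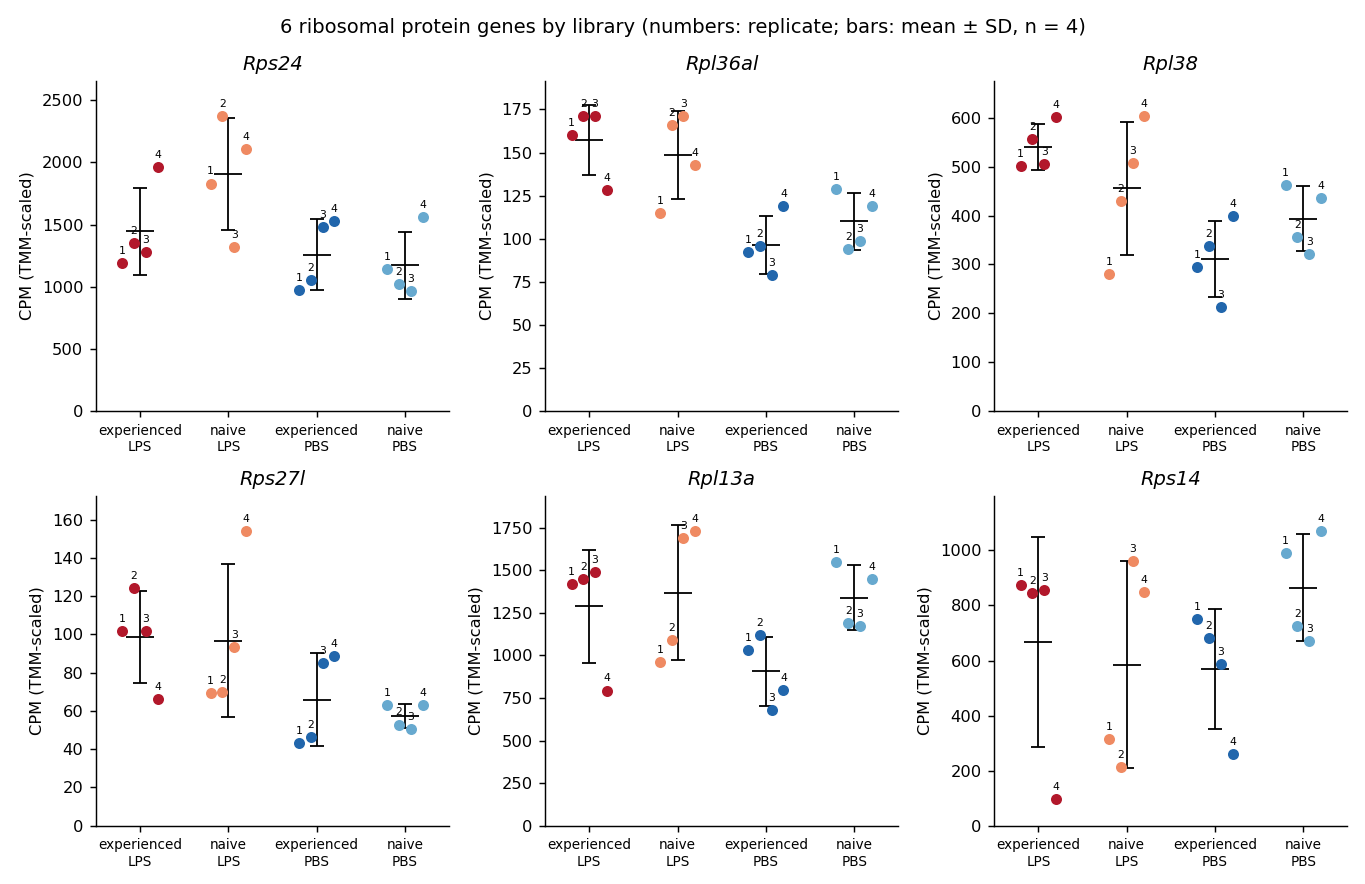
CPM of Rps24, Rpl36al, Rpl38, Rps27l, Rpl13a and Rps14 in 16 libraries; points are libraries with their replicate numbers, and bars are mean ± SD (n = 4). Rpl36al and Rpl38 in experienced LPS lie above experienced PBS without overlap, and Rps14 drops to 95.3 CPM in experienced LPS replicate 4.

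The mean length of the transcripts assigned to a gene, which RSEM reports per library, moved with LPS for Rps24 and Rpl22. Mean length of Rps24 was 638, 696, 697 and 743 bases in experienced LPS and 681, 835, 713 and 704 in naive LPS libraries, against 588, 550, 574 and 573 in experienced PBS and 596, 555, 559 and 522 in naive PBS libraries. All 8 LPS libraries lay above all 8 PBS libraries. Rpl22, an RNA-binding protein of the large subunit that developing mouse T cells need, went the other way: 587, 566, 592 and 558 bases in experienced LPS and 576, 544, 582 and 570 in naive LPS, against 796, 718, 675 and 600 in experienced PBS and 683, 732, 719 and 699 in naive PBS libraries. Here all 8 LPS libraries lay below all 8 PBS libraries. Of the 8362 genes with a mean count of at least 50 and a length that varied, 61 of them members, 0.0598% were longer and 0.155% shorter without overlap between the 8 LPS and the 8 PBS libraries.

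Within either history alone, limma on log2 length called 0 of 8362 genes. In naive mice 417 genes and in experienced mice 472 had an unadjusted p under 0.05, Rps24 and Rpl22 among both. These counts are near the share of genes that such a threshold passes by chance. Averaged over both histories, Rps24 was longer (log2 ratio 0.33 ± 0.04, SE, limma adjusted p = 0.0411) and Rpl22 shorter (-0.29 ± 0.05, SE, limma adjusted p = 0.045). They were 2 of the 7 genes called, 0.0239% of all genes being longer and 0.0598% shorter. The calls lie close to the threshold. With 1 library left out the adjusted p of Rps24 ranged between 0.0142 and 0.106 and passed in 5 of 16 fits, those without experienced LPS replicate 1, experienced PBS replicate 4, naive LPS replicate 1 or 2, or naive PBS replicate 1. That of Rpl22 ranged between 0.00371 and 0.132 and passed in 1 fit, without experienced PBS replicate 4. With effective length in place of mean length the adjusted p was 0.0843 for Rps24 and 0.244 for Rpl22. The contrast was chosen after both genes had been seen to move.

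For both genes the change in level depended on the unit. In read counts, Rps24 rose by 0.45 and Rpl22 stood at 0.08 ± 0.11 (SE, edgeR adjusted p = 0.619) over both histories, while with effective length as an offset Rps24 stood at -0.09 ± 0.17 (SE, edgeR adjusted p = 0.742) and Rpl22 rose by 0.41 ± 0.13 (SE, edgeR adjusted p = 0.0227). In TPM, Rpl22 had 594, 733, 586 and 512 in experienced LPS and 598, 718, 700 and 516 in naive LPS, against 421, 509, 500 and 513 in experienced PBS and 612, 501, 520 and 453 in naive PBS libraries. These overlapped. The tables list 2 transcripts for Rps24 and 8 for Rpl22, each gene with 1 mean length per library. In GENCODE's GRCm38 annotation the same 2 transcripts of Rps24 are 468 and 519 bases long, shorter than the mean lengths in the tables, so the authors' annotation differs there, and which transcript gained reads cannot be told apart.

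**Figure D4:**
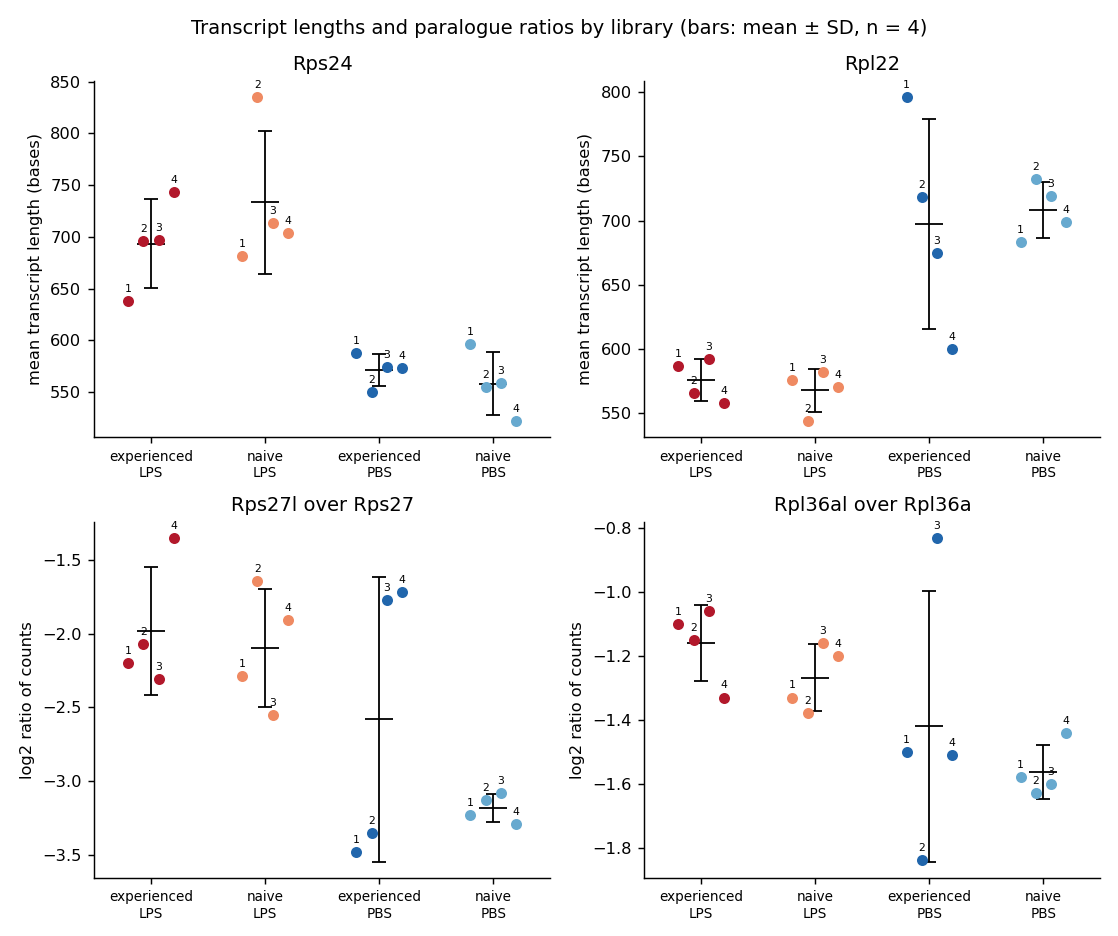
Mean transcript length of Rps24 and Rpl22 in bases (top) and log2 ratio of counts of Rps27l over Rps27 and of Rpl36al over Rpl36a (bottom) by library; numbers are replicates and bars are mean ± SD (n = 4), with axes that do not start at 0. LPS and PBS libraries separate in both lengths, and for both ratios in naive mice.

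Paralogue pairs were compared as ratios within a library. Such a ratio does not cancel the family's variation between libraries where the 2 genes weigh unequally on the first component, as Rps27 (0.171) and Rps27l (0.058) do. The log2 ratio of Rps27l over Rps27 counts was -2.29, -1.64, -2.55 and -1.91 in naive LPS, against -3.23, -3.13, -3.08 and -3.29 in naive PBS libraries, and -2.20, -2.07, -2.31 and -1.35 in experienced LPS, against -3.48, -3.35, -1.77 and -1.72 in experienced PBS libraries. In naive mice the groups did not overlap, a difference of 1.09 (two-sided exact permutation test, p = 0.0286, the smallest that 70 arrangements allow, 0.229 adjusted over 16 comparisons). In experienced mice they overlapped (difference 0.60, exact p = 0.343), with high ratios in replicates 3 and 4 of experienced PBS. The highest ratios were those of experienced LPS replicate 4, naive LPS replicate 2 and these 2 experienced PBS libraries, all of low family score. Rpl36al over Rpl36a was -1.33, -1.38, -1.16 and -1.20 in naive LPS, against -1.58, -1.63, -1.60 and -1.44 in naive PBS libraries (difference 0.30, exact permutation p = 0.0286, adjusted 0.229). In experienced mice the difference was 0.26 (exact p = 0.314). Rpl7l1 over Rpl7 differed by 0.22 in naive and 0.17 in experienced mice, and Rpl22l1 over Rpl22 by -0.12 and 0.32. None of the 16 comparisons passed the adjustment. As no p could lie under 0.0286, passing would have needed many comparisons at that floor, so this outcome does not show that the ratios were alike.

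Between experienced and naive mice after PBS, 0 of 83 members were called in either direction, and edgeR called 0.0% of all 15186 genes. DESeq2 and limma also called 0 members. At an unadjusted p under 0.05, 0 members were higher and 1 was lower, against 1.96% and 1.01% of all genes. The lower member was Rpl13a, which in human monocytes leaves the ribosome to repress inflammatory mRNAs. It had 1030, 1120, 681 and 796 CPM in experienced PBS libraries, against 1550, 1190, 1170 and 1450 CPM in naive PBS libraries, without overlap (log2 difference -0.56 ± 0.24, SE, edgeR adjusted p = 0.988). Estimates were negative for 72 of 83 members, with a median of -0.24 against 0.00 over all genes. With 1 library left out the members' median ranged between -0.3 and -0.2. Shorter members tended to have the lower estimates (Spearman correlation with transcript length 0.4). Members' effective lengths were shortest in experienced PBS replicate 3 (median log2 deviation from their own means -0.145), and next in naive PBS replicate 4 (-0.076). The part of length in this lean was not tested. Experienced libraries lay below naive ones without overlap for 8 members, Rpl13a, Rpl3, Rpl41 and Rplp0 among them, 7 of which had an unadjusted p over 0.05, against 2.22% of all genes, and above them for 0 members, against 1.82%. For 67 members (80.7%) the 95% interval lay within 2-fold. These estimates move together within a library, as the first component shows, so they are not separate observations.

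Between experienced and naive mice after LPS, 0 of 83 members and 0.0% of all genes were called by edgeR, 0 members had an unadjusted p under 0.05, against 1.09% of genes higher and 2.14% lower, and DESeq2 and limma called 0 members. The groups overlapped for every member, while 0.606% of all genes were higher and 1.01% lower without overlap. The median difference was 0.02 (-0.06 to 0.18 with 1 library left out), and 80 members (96.4%) had a 95% interval within 2-fold. The interaction, in which the change of naive mice with LPS is taken off that of experienced mice, gave 0 called members, with 0.0% of all genes called and the lowest adjusted p of a member at 0.884. Its median over the members was 0.26, and 0.17 to 0.42 with 1 library left out, the ends being the fits without naive LPS replicate 2 and without experienced LPS replicate 4, with 0.39 without naive LPS replicate 3. DESeq2 and limma called 0 members here too, and 0 had an unadjusted p under 0.05, against 1.52% of genes higher and 3.06% lower. Rpl38, called in experienced mice only, had an interaction of 0.59 ± 0.31 (SE, edgeR adjusted p = 0.884), and Rps24, called in naive mice only, had -0.50 ± 0.32 (SE, edgeR adjusted p = 0.884). The response to LPS is therefore not shown to differ between histories. The precision here was lower, with 43 members (51.8%) bounded within 2-fold.

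Some members tied to marrow failure in humans varied widely between libraries of the same group. Rps14, whose loss of 1 copy drives the anaemia of a myelodysplastic syndrome, had 874, 846, 856 and 95.3 CPM in experienced LPS, 314, 214, 963 and 850 in naive LPS, 749, 681, 589 and 260 in experienced PBS and 990, 726, 672 and 1070 in naive PBS libraries. It carried the largest weight of all members on the first component (0.301). Rps19 had 853, 919, 902 and 353 CPM in experienced LPS, 615, 349, 936 and 1200 in naive LPS, 796, 674, 657 and 527 in experienced PBS and 914, 711, 638 and 864 in naive PBS libraries, and its groups overlapped throughout. Rpl5 went against this pattern, with its highest values in experienced LPS replicate 4 (816 CPM), naive LPS replicate 2 (1110 CPM) and naive LPS replicate 1 (874 CPM), though much of its reads lie on pseudogenes. The 5 genes outside the family whose log2 CPM followed the members' mean most closely over the 16 libraries had Pearson correlations of 0.922 to 0.941.

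The rest of the translation machinery was read from lists beside the family, whose counts stand against 4.52% of all genes higher and 8.26% lower with LPS in experienced mice, and 9.81% higher and 11.9% lower in naive mice. The list of TOP-class translation factors also holds genes with other roles, such as Npm1, the nucleolar chaperone. Of its 20 genes, 2 were higher in experienced mice (Btf3, 0.59, and Eif3m, 0.47) and 2 in naive mice (Npm1, 1.43, and Eef1d, 0.69). The naive share was near that of all genes. The elongation factor Eef1a1 stood at -0.09 ± 0.16 in experienced and -0.21 ± 0.16 in naive mice (SE). Host genes of small nucleolar RNAs, which carry the same 5′ motif, had 0 of 8 called in experienced and 4 of 8 higher in naive mice: Snhg3 (1.02), Snhg5 (1.02), Zfas1 (0.87) and Gas5 (0.77).

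Several factors that carry or assemble ribosomal proteins rose with LPS. Of 14 nuclear chaperones and importers, 2 rose in experienced and 6 in naive mice, where 4.52% and 9.81% of all genes rose. Heatr3, which in human cells brings Rpl5 into the nucleus, rose by 0.71 ± 0.16 in both (SE, edgeR adjusted p = 0.00831 in experienced and 0.0051 in naive mice), and Pdcd2, in human cells a chaperone of Rps2, rose by 0.71 and 0.62. In naive mice alone Ltv1, Bccip, Ipo7 and Tsr2, the chaperone of Rps26 in yeast and human cells, also passed, at 0.86, 0.72, 0.63 and 0.55, and the difference between histories was not called for any of them. Of 16 core assembly factors, 12 rose in experienced and 13 in naive mice, with medians of 0.65 and 0.76. Among the 78 mitochondrial ribosomal proteins 16 rose in experienced and 26 in naive mice, with medians of 0.44 and 0.46. Among 19 regulators of TOP translation, Larp1, which binds the motif, rose by 0.60 ± 0.16 in experienced and 0.67 ± 0.16 in naive mice (SE, edgeR adjusted p = 0.0204 and 0.00736). Eif4e, the cap-binding protein, and Larp4 rose in naive mice (0.85 and 0.69), Tia1 fell in experienced mice by 0.53, and Mtor stood at 0.13 and 0.15 and was not called. These lists were drawn up with earlier results of the same libraries known, and the assembly factors overlap genes already known to rise there, so their direction is not independent evidence.

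**Figure D5:**
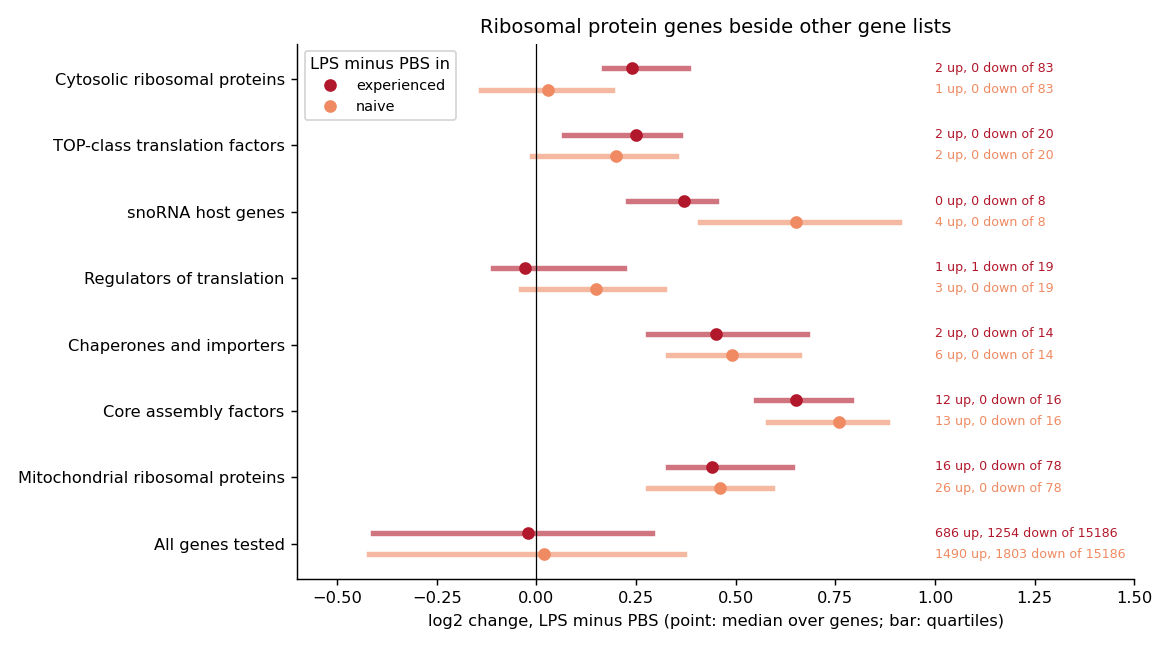
Median (point) and quartiles (bar) of the log2 change with LPS over the genes of each list in experienced (dark) and naive mice (light), with the number called higher and lower at right. Cytosolic ribosomal proteins lie near all genes in naive mice (median 0.03 against 0.02), and core assembly factors lie furthest right (0.65 and 0.76).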

How the data were processed

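RNA of sorted HSPCs was analysed in 16 tables, grouped by sample title. Each biological replicate has 1 table, although the labels list 2 technical replicates for each and name a droplet library kit. Whether a replicate is its own mouse is not stated, and p-values therefore reflect the spread between libraries only. Per the submitters' processing notes, Trim Galore 0.6.7 trimmed the reads, STAR 2.7.10a aligned them to GRCm38 and RSEM 1.3.1 quantified genes. Annotation release and strand are not given. The deposited expected counts are RSEM's estimates, which divide reads shared between genes and pseudogenes. The deposited TPM are levels per length. The mean and effective transcript lengths are also RSEM's, per the file headers.

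GENCODE's GRCm38 annotation gave symbols for 45143 of 45706 gene identifiers. Expected counts were rounded, and edgeR's filter by group left 15186 genes with 99.928% of the counts. After scaling by trimmed means, a quasi-likelihood model with a mean for each group was fitted to the 16 libraries at once (edgeR 4.0.16, R 4.3.3). Benjamini-Hochberg adjustment ran over all genes, with calls under 0.05. limma 3.58.1 tested TPM (pseudocounts 1 and 0.1) and log2 mean transcript length, and DESeq2 1.42.0 served as an alternative. The tests were tried on simulated data. Pseudogenes matched by sequence shared at least 90% identity over 80% of their length. Members named were those called, the 5 highest and the 5 lowest by TPM, and a list of names. The members and all lists were chosen with earlier results of these data known. Chromatin accessibility was not analysed here, and some genes are not reported here.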

Additional observations from a re-analysis of the deposited data

Results flagged for a closer look

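In 16 of 124 sets of 4 replicates examined, 1 library lay farther from the other 3 than Dixon's 95% limit. For separate sets chance gives about 1 in 20. Members move together within a library, so these sets are not separate tests. Of these 16, 12 are in experienced LPS replicate 4, the library with 7.3% mitochondrial counts. Its members' share of counts was 4.84%, against 6.48% to 6.68% in the other 3 libraries of the group. It was low, in CPM, for Rps14 (95.3, against 846 to 874), Rps19 (353, against 853 to 919), Rps20 (366, against 651 to 684), Rpl41 (547, against 1130 to 1180), Rpl13a (794, against 1420 to 1490), Rpl10a (845, against 1130 to 1160), Rps4x (890, against 1220 to 1250) and Rpl3 (1040, against 1680 to 1750). It was high for Rps12 (1360, against 730 to 783), Rps26 (1090, against 759 to 815) and Rpl5 (816, against 659 to 686).

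Another 4 libraries stood apart once each. Naive LPS replicate 2 was low for Rpl10 (726 CPM, against 937 to 958), and experienced PBS replicate 4 was low for the stalk protein gene Rplp2 (370 CPM, against 492 to 516). Naive PBS replicate 1 was high for Rps20 (694 CPM, against 498 to 530), and naive PBS replicate 4 was high for Rps26 (1110 CPM, against 691 to 746). The causes were not tested.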

How the results depend on the processing

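No alternative called a member lower, and none called a member between experienced and naive mice or in the interaction. Members called higher with LPS numbered 2 in experienced and 1 in naive mice. Under DESeq2 these counts were 4 and 3, under limma on log2(TPM + 1), log2(TPM + 0.1) or log2(TPM + 1) without a filter 0 and 0, and with effective length offsets 1 and 0. Scaled to the ribosomal protein genes themselves, a choice made after seeing the data, they were 1 and 0. With upper-quartile factors and with no filter on low counts the naive count was 0, and without both libraries over 5% mitochondrial counts the counts were 8 and 6. With 1 library left out they ranged between 1 and 12 in experienced and between 0 and 3 in naive mice. The difference in share of counts then ranged between 0.36 and 0.97 percentage points for LPS in experienced mice, -0.54 and 0.10 in naive mice, -1.07 and -0.63 for experienced against naive after PBS, and -0.42 and 0.36 after LPS.

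Averaged over both histories, 7 members were higher, against 15.2% of all genes. The count of members became 11 under DESeq2, 1 under limma on log2(TPM + 1) and 4 with effective length offsets. It was 2 scaled to the ribosomal protein genes, 13 without both libraries and 4 to 10 with 1 library left out. The share of all genes called is given for the main fit only, so these counts alone show no response of the family. Rps24 turned to -0.16 under limma on log2(TPM + 1) and -0.09 with effective length offsets, where its longer mean transcript is divided out. For length, 1 member was longer and 1 shorter. Both counts became 0 with effective length and with the replicate block, longer became 0 without both libraries, and with 1 library left out both lay between 0 and 1. The cause of the other shifts was not tested.

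The replicate numbers are not stated to pair the samples. Same-numbered libraries of different groups had a mean correlation of deviations of -0.00771, and 4 of 24 pairs exceeded 0.1. For libraries with other numbers the mean was 0.00629, and 18 of 72 pairs exceeded 0.1. A mean near 0 cannot exclude that some libraries share a pairing or a batch. With the replicate block, 2 members were called in experienced and 1 in naive mice, and 7 in the averaged contrast. At 4 libraries a group, the median SE of a log2 change was 0.24, so modest shifts of single genes are not resolved, and the depth of the shallowest library was 7.72 M counts.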
